A study of Mus musculus with 14 samples.

Results

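The genes described here encode the nuclear subunits of oxidative phosphorylation (OXPHOS), read in RNA-seq of bone marrow stromal cells (BMSCs) that carry the Nes-GFP reporter. They were chosen by symbol from the count table (Nduf followed by a, b, c, s or v and a number, Sdha to Sdhd, symbols that begin with Uqcr, Cox4 to Cox8 or Atp5, and Cyc1), and 84 of 27099 symbols were members after 6 pseudogene symbols had been left out. Complex I holds 35 of them, complex II 4, complex III 9, complex IV 19 and complex V 17. Ndufa4 and its relative Ndufa4l2 were put with complex IV, where the Ndufa4 protein sits in spite of its name. Atp5s and Atp5sl match by symbol only and are not subunits of the ATP synthase. In Nes-GFP mice, cells that use nestin regulatory sequence carry green fluorescent protein. Cells were freed from bone with collagenase and sorted alive as GFP+ cells without CD45 and CD31, and the methods add Ter119, a red cell marker that the labels do not name; Nes-GFP high and low cells were kept apart. Primary iMLL-AF9 mice, with rtTA in the ROSA26 locus and the human MLL-AF9 fusion under a tetracycline response element, were given doxycycline and taken once acute myeloid leukemia (AML) was evident; they gave 2 Nes-GFP high and 4 Nes-GFP low libraries, called AML-high and AML-low here. Normal mice, free of disease and called wild type in the results of the study, were given sucrose in water as vehicle. They gave 2 Nes-GFP high and 6 Nes-GFP low libraries, called normal-high and normal-low. The methods describe the mice of the study as young adults matched for age and sex, without an age for each library. AML and doxycycline go together and cannot be told apart, and some libraries are single mice and others pools of mice, without a statement of which, so that p-values measure the spread between these libraries.

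Libraries held 5615941 to 11436652 counts, and AML-low replicate 4 had the fewest. Normal-high replicate 1 stood apart with 14842 genes seen, against 18177 to 20197 in the other 13 libraries, and the results that rest on it are also given without it.

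The respiratory chain passes electrons from NADH (complex I) and succinate (complex II) through complex III to oxygen at complex IV and pumps protons across the inner mitochondrial membrane, and complex V, the ATP synthase, uses the proton gradient to make ATP. All 4 subunits of complex II come from nuclear genes, whereas complexes I, III, IV and V join nuclear subunits with subunits encoded in mitochondrial DNA. Promoters of nuclear OXPHOS genes are known for sites of NRF1, of GABP (NRF2, a factor of the ETS family) and of YY1. Complex IV has several subunits with a common and a tissue-bound isoform, among them isoforms of heart and skeletal muscle (Cox6a2, Cox7a1, Cox8b), of testis (Cox6b2, Cox7b2) and oxygen-responsive ones (Cox4i2, Ndufa4l2).

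Promoters were read around the start of each gene, from 250 bases before it to 50 bases after it, in RefSeq on GRCm38.p6, and 69 of the 84 members had an entry; those without included Atp5a1, Cox4i1 and Cyc1. On either strand, the NRF1 letters GCGCANGCG stood in the promoters of 20 of 69 members (29.0%), against 7.03% of all 27025 genes with an entry and 14% of the 11075 such genes that were tested. The ETS letters CCGGAAG stood in 16 members (23.2%; 9.93% of all genes and 18.5% of tested genes), and the YY1 letters AAGATGGCG in 8 (11.6%; 1.64% and 3.24%). At least 1 of the motifs was found in 36 members (52.2%), against 16.5% of all genes and 31.2% of tested genes, and over all 32851 promoter windows of 300 bases, some genes having several, the share was 14.8%. By complex, NRF1 letters were found in 8 of 31 members of complex I, 2 of 3 of complex II, 2 of 5 of complex III, 1 of 14 of complex IV (Cox6a1) and 7 of 16 of complex V. The YY1 letters were found in complex I (5 members) and complex V (3 members) only. A match describes the letters in the window and is not a binding site. The promoters of the members that differed most between groups in the comparisons that follow, those past the threshold of DESeq2 with an entry, are printed 5′ to 3′ with NRF1 or ETS letters on either strand in capitals.
Uqcrc1 promoter, chr9:108936398-108936697, plus strand: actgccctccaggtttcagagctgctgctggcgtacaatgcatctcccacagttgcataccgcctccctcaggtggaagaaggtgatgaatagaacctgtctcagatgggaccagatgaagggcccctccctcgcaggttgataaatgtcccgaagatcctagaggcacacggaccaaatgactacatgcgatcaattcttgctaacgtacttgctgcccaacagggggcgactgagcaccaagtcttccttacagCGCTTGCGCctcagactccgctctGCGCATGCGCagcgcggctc
Ndufs5 promoter, chr4:123718137-123718436, minus strand: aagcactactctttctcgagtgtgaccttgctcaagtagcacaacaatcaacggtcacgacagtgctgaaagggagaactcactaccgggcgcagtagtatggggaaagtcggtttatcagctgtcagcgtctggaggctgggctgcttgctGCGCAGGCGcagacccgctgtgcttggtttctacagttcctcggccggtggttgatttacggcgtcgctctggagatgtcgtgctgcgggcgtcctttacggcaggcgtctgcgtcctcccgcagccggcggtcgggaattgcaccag
Sdhb promoter, chr4:140961021-140961320, plus strand: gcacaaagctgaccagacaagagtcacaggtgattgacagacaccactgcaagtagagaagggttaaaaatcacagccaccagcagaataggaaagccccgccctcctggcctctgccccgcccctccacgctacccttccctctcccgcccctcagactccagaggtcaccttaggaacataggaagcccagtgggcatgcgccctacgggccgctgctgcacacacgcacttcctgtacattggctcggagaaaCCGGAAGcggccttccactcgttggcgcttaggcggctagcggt
Ndufs3 promoter, chr2:90904672-90904971, minus strand: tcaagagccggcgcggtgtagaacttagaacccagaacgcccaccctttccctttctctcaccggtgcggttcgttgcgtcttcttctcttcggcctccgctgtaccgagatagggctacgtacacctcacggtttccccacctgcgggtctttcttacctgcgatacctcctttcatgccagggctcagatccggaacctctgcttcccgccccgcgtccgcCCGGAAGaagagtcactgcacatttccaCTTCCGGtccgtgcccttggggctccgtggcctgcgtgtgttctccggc
Ndufs8 promoter, chr19:3912725-3913024, minus strand: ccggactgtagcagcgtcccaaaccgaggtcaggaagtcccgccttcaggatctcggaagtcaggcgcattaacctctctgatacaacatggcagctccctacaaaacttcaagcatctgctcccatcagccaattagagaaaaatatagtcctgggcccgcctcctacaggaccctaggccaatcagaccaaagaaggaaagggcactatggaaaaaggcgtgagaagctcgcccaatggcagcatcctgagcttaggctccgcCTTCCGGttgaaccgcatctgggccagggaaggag
The Uqcrc1 window holds NRF1 letters at bases 257 to 265 on the minus strand of the window and at bases 281 to 289 and, overlapping them on the other strand, 282 to 290. Ndufs5 has 1 NRF1 match, at bases 153 to 161, and Sdhb 1 ETS match, at bases 257 to 263. Ndufs3 has ETS letters at bases 224 to 230 and, on the other strand, at bases 252 to 258, and Ndufs8 at bases 266 to 272.

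OXPHOS subunit transcripts were detected in every library. A count was seen in every library for 80 of 84 members, and 72 stood at 10 CPM (counts per 1000000 counts, after TMM scaling of library sizes) or more in every library. The 4 members without a count somewhere were the muscle isoforms Cox6a2, Cox7a1 and Cox8b and the testis isoform Cox7b2. Per kilobase of the principal transcript, Cox4i1, a nuclear subunit of complex IV, had the highest median level over the 14 libraries, at 673 CPM per kb. It was followed by Cox8a (481), Cox6b1 (464) and Cox6a1 (436), also of complex IV, and by Atp5b (402), the catalytic beta subunit of the ATP synthase. Uqcrc1, a core protein of complex III, stood at 244 CPM per kb, Sdhb, the iron-sulfur subunit of complex II, at 146, and Ndufs1, the largest iron-sulfur subunit of complex I, at 26.0. The order rests on the transcript length: Atp5g1, with a principal transcript of 4715 bases, came out at 18.6 CPM per kb from a median of 87.8 CPM.

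**Figure D1:**
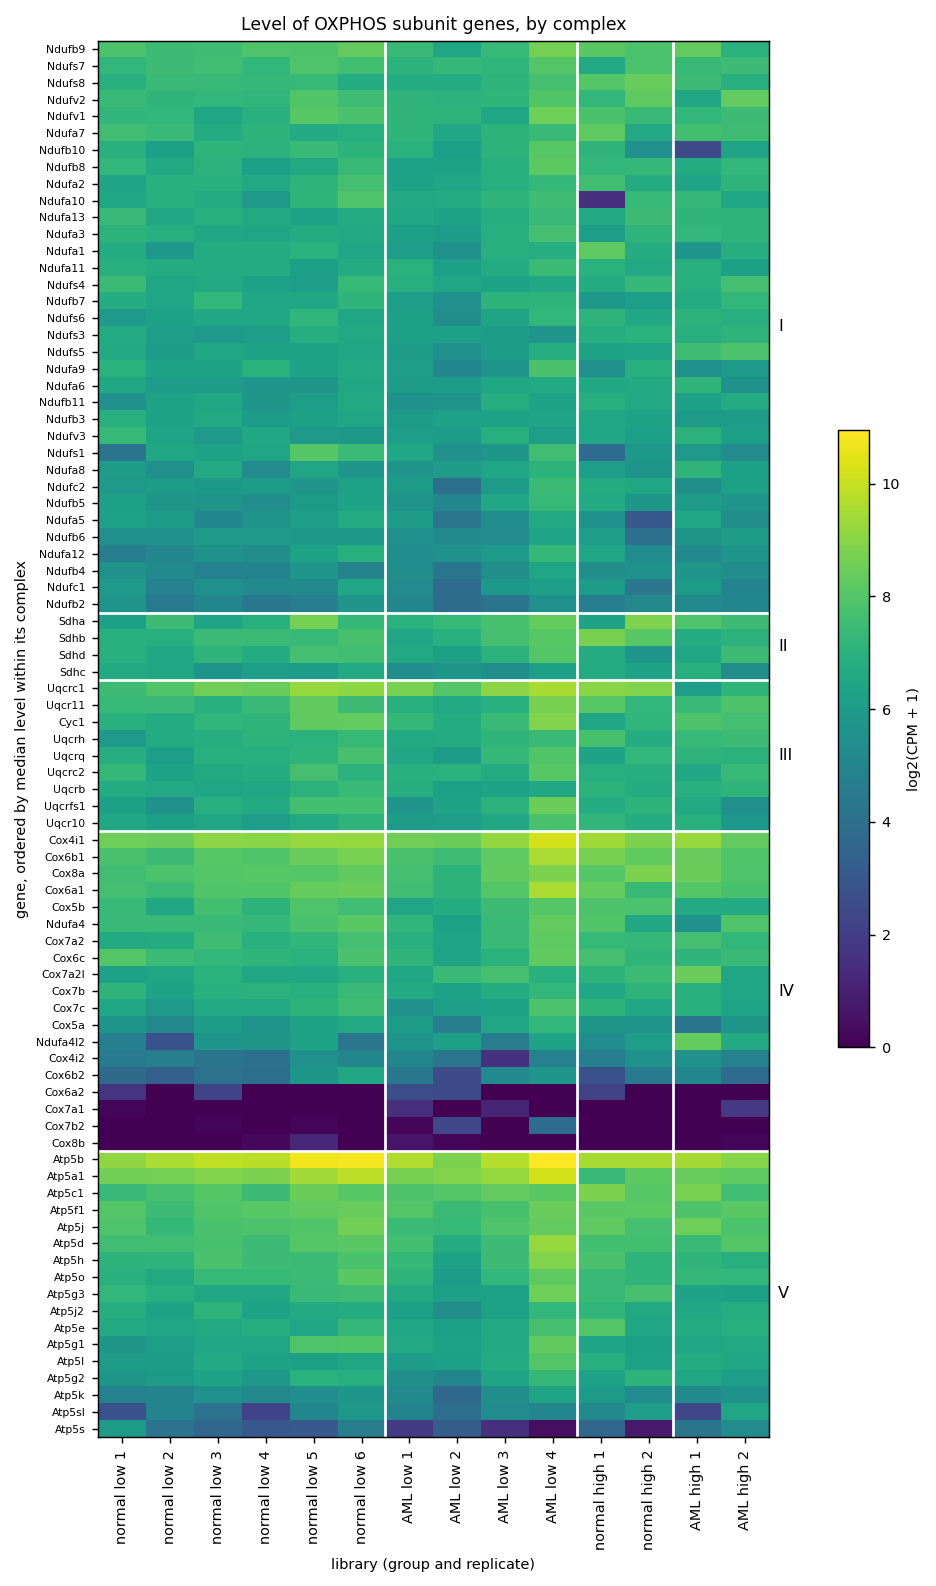
Level of 83 of the 84 members in each of the 14 libraries, as colour on the scale of log2(CPM + 1), bright for high; rows are genes by complex I to V, columns the libraries by group. Most rows keep a similar colour, AML-low replicate 4 is the brightest column for 44 of 80 members, and Cox6a2, Cox7a1, Cox7b2 and Cox8b are dark, at or near 0.

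Nearly all members were detected in every library, and so were nearly all genes of similar level, except in normal-high replicate 1. Among 10641 genes that averaged 10 CPM or more over the low libraries, the share under 0.5 CPM was 21.4% for normal-high replicate 1, 5.75% for normal-high replicate 2, 11.3% and 8.93% for AML-high replicates 1 and 2, and 0.94% to 6.65% for the low libraries. The genes were picked by their level in the low libraries, which favors detection there, so high and low libraries cannot be compared here. None of the 80 members among these genes was under 0.5 CPM in 13 of the 14 libraries, and 1, Atp5s, was so in AML-low replicate 4. The 5849 genes of similar level (31.0 to 321 CPM) were under 0.5 CPM at a share of 11.4% in normal-high replicate 1 and of 0% to 2.67% elsewhere. Outside normal-high replicate 1 the members were thus near the share of these genes. In AML-low replicate 4 it was 1.25% for the members and 0.547% for these genes. Members varied less among replicates than the genes of similar level. The median SD of log2(CPM + 1) within normal-low libraries was 0.420 for the members and 0.813 for the genes of similar level; in AML-low libraries it was 0.762 and 0.895. In the pairs of Nes-GFP high libraries it was 0.358 against 0.811 (AML) and 0.421 against 0.995 (normal). Within normal-low libraries, the least variable members were Ndufc2 (SD 0.194) and Ndufb6 (0.206), accessory subunits of complex I, and among the most variable were Ndufs1 (1.31), Cox6b2 (1.27) and Ndufa4l2 (1.32).

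Single members stood apart in single Nes-GFP high libraries. Ndufa10, an accessory subunit of complex I, was at 1.77 CPM in normal-high replicate 1 and at 58.1 to 242 CPM in the other 13 libraries. Ndufb10, another accessory subunit, was at 4.58 CPM in AML-high replicate 1 and at 45.7 to 270 CPM elsewhere. Normal-high replicate 2 held the lowest value of Ndufa5 (7.38 CPM) and of Ndufb6 (14.9 CPM), which replicate 1 of the same group held at 47.3 and 66.3 CPM.

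Summed over all 84 members, OXPHOS transcripts made up 11870 and 10670 CPM in AML-high and 12950 and 12050 CPM in normal-high libraries. In Nes-GFP low BMSCs of AML mice, replicates 1 to 4 held 9291, 7533, 11490 and 21870 CPM. In the 6 Nes-GFP low libraries of normal mice, the sums ran from 9025 to 15770 CPM, with a median of 10640. The group means were 11270 ± 848.5 (SD, n = 2), 12500 ± 636.4 (n = 2), 12550 ± 6423 (n = 4) and 11770 ± 2745 CPM (n = 6) for AML high, normal high, AML low and normal low libraries. The ranges of AML and normal low libraries overlapped, and both pairs of high libraries lay within the range of the low libraries, whose top was AML-low replicate 4 and whose bottom was AML-low replicate 2. Within the high population, complex II stood at 553.4 and 536.2 CPM (AML) against 697.5 and 857.8 CPM (normal), and complex III at 1196 and 1298 against 1669 and 1486 CPM. These sums were described and not tested.

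**Figure D2:**
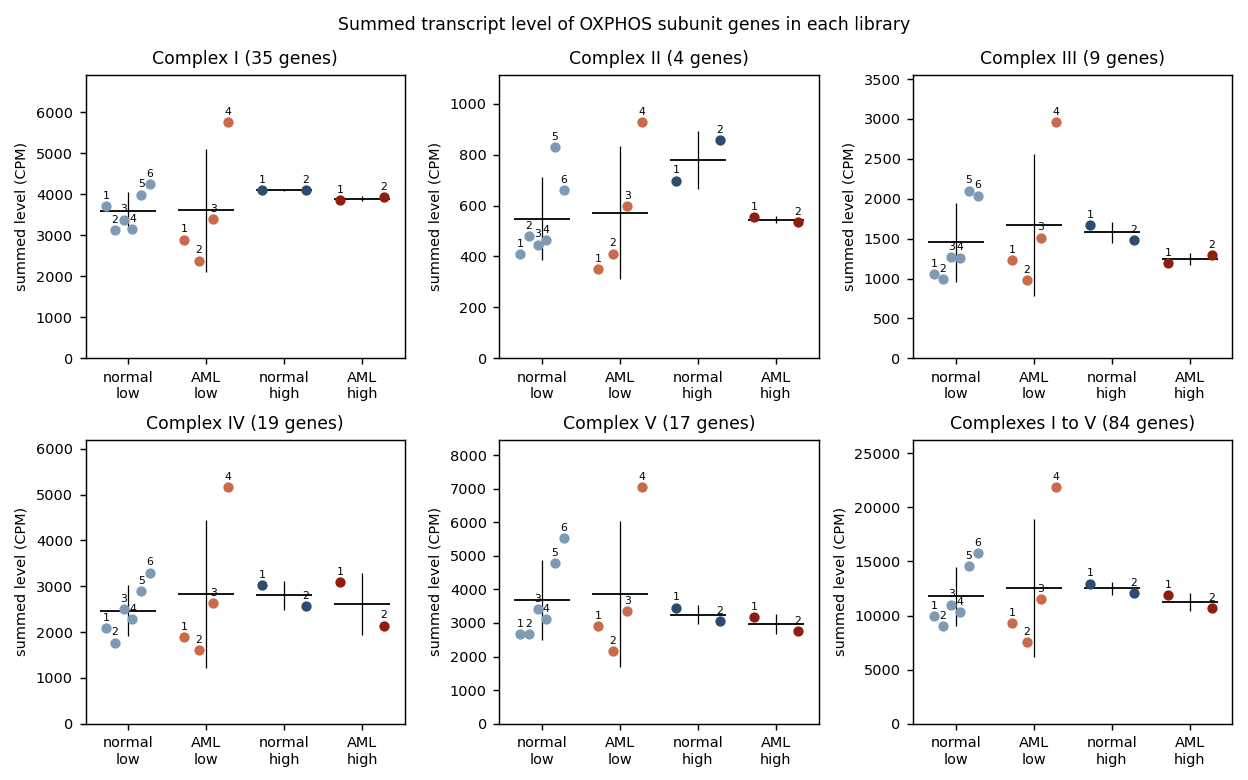
Summed level (CPM after TMM, linear axis) of the members of each complex and of all 84, by group; points are libraries with their replicate number, lines the group mean and bars ± 1 SD. AML-low replicate 4 is the highest point in every panel.

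AML-low replicate 4 held the highest sum in every complex. In complex II, with 928.5 CPM, AML-low replicate 4 was close to normal-high replicate 2 (857.8 CPM). Its sum was 1.55 times the median of the other 13 libraries in complex I, 1.73 times in complex II, 2.34 times in complex III, 2.07 times in complex IV and 2.26 times in complex V. It held the highest value of all libraries for 44 of 80 members (55.0%), against 14.5% of all 10641 genes: 14 of complex I, 1 of complex II, 7 of complex III, 10 of complex IV and 12 of complex V. Atp5b reached 1970 CPM there, Atp5a1, the alpha subunit that pairs with it in the F1 head, 1200 CPM, and Cox4i1 1200 CPM. AML-low replicate 2 held the lowest value for 31 members, against 4.46% of all genes. Replicate 4 was also the library with the fewest reads (5615941 of at most 11436652 counts).

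The complexes did not keep 1 ratio across libraries. The sum of complex V over that of complex I was 0.822 and 0.701 in AML and 0.842 and 0.743 in normal-high libraries. In the low population it ran from 0.902 to 1.22 in AML mice and from 0.720 to 1.30 in normal mice, and it was highest in normal replicates 6 and 5 (1.30 and 1.2) and AML replicate 4 (1.22). Complex III over complex I ran from 0.310 to 0.407 in the high and from 0.285 to 0.527 in the low libraries. The F1 head summed to 4252 CPM in AML-low replicate 4 and to 3082 and 3409 CPM in normal-low replicates 5 and 6, and to 1345 to 2040 CPM in the other 11 libraries.

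The 3 libraries with the highest OXPHOS sums were also those with the highest sums over a list of erythroid markers. The summed level of the erythroid markers, 14 of 15 of which are in the table, was 5117 CPM in AML-low replicate 4 and 34.04 to 141.3 CPM in AML-low replicates 1 to 3. In normal-low libraries it was 6926 and 5819 CPM in replicates 5 and 6 and 535.5 to 3264 CPM in the other 4, and in the Nes-GFP high libraries it was 164.5 and 18.31 CPM (AML) and 3102 and 173.9 CPM (normal). A large part of these sums was 1 gene, Car2. It held 2470 CPM in AML-low replicate 4, 3090 and 2410 CPM in normal-low replicates 5 and 6, and 7.32 to 856 CPM elsewhere. Single markers ranked the libraries differently. Hba-a1 was highest in normal-low replicates 6 and 5 (648 and 593 CPM). In AML-low replicate 4 it was at 415 CPM, below normal-high replicate 1 (586 CPM) and normal-low replicate 4 (441 CPM). Klf1, the erythroid master factor, stood at 392 CPM in AML-low replicate 4, 443 and 293 CPM in normal-low replicates 5 and 6, and 0.619 to 131 CPM elsewhere. The late marker Slc4a1 was at 0 CPM in AML-low replicate 4, and Alas2 at 0.652 CPM. Immediate early genes, which respond to cell isolation, ran the other way in the low population: they summed to 3444 CPM in AML-low replicate 4 and to 6540 and 5898 CPM in normal-low replicates 5 and 6. Elsewhere in the low population they summed to 9517 to 29850 CPM, and in the high population to 6487 to 35620 CPM. Myeloid markers, in contrast, were highest in AML-low replicate 3 (95490 CPM) and normal-low replicate 3 (102700 CPM), whose OXPHOS sums were 11490 and 11000 CPM. Markers of Lepr+ cells, a main type of the marrow stroma that the labels name, summed to 981.5 CPM in AML-low replicate 3 and to 83990 CPM in normal-high replicate 1, and 8479 CPM in AML-low replicate 4. The sum in normal-high replicate 1 was mostly collagen, with Col1a1 at 51900 and Col1a2 at 23400 CPM. Other markers of the list were low there, with Lepr at 233 and Pdgfrb at 0.883 CPM. Lepr itself was highest in normal-low replicate 2 (2020 CPM) and lowest in AML-low replicate 3 (8.23 CPM). Endothelial markers summed to 1.115 to 51.69 CPM, those of Schwann cells and glia to 25.88 to 159.7, those of pericytes and smooth muscle to 30.04 to 2054 and those of lymphoid cells to 11.65 to 3158. The part of other cells in the OXPHOS levels was not tested, and in bulk libraries fewer cells of a type and less RNA per cell cannot be told apart.

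**Figure D3:**
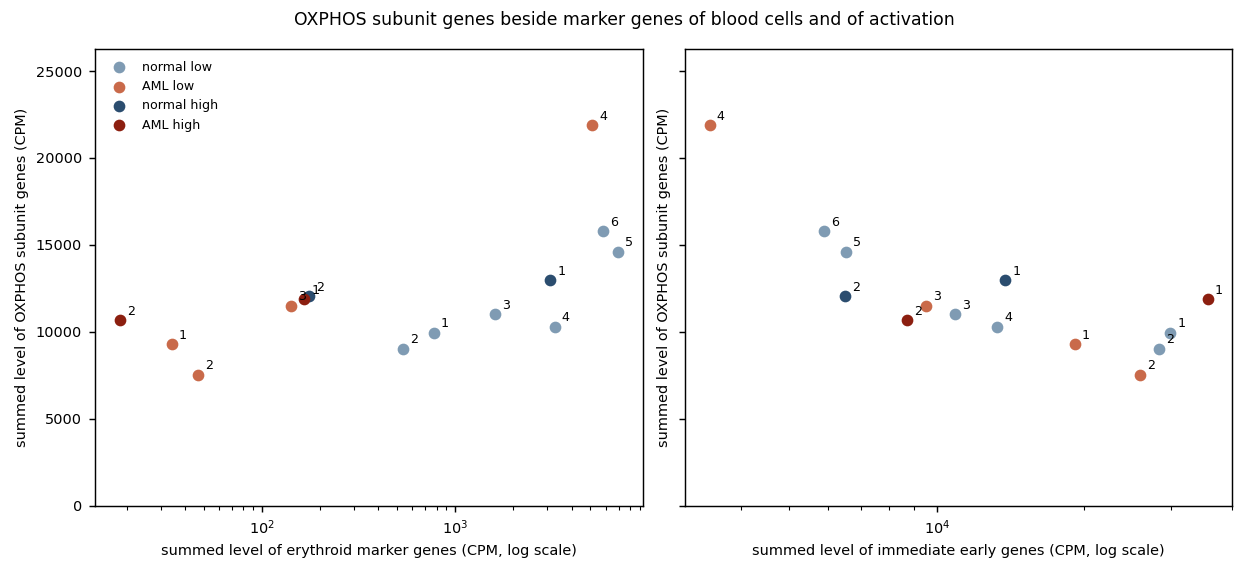
Summed OXPHOS level (CPM, linear vertical axis) against the summed erythroid markers (left) and immediate early genes (right; CPM, log axes); points are libraries, with the replicate number and the group as colour. AML-low replicate 4 and normal-low replicates 5 and 6, the 3 points at the top (14600 CPM and more), have 5117 to 6926 CPM of erythroid and 3444 to 6540 CPM of immediate early transcripts.

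In Nes-GFP high BMSCs, AML against normal mice, OXPHOS members as a group stayed near the other genes, and the smallest p-values were those of Uqcrc1, Sdhb and Ndufs5. Of 83 members tested (Cox8b had too few counts), 35 had a fitted value above 0, 47 below and 1 (without a count in these libraries) at 0, with a median log2 fold change of -0.12, or -0.13 with isoforms absent from a group set to a floor of 3 counts; the median of all 18152 genes was 0.08. Without normal-high replicate 1 the median of the members was 0.11. By complex, the medians were -0.03 (I), -0.30 (II), 0.07 (III), -0.16 (IV) and -0.20 (V). edgeR called 0 members and 0 genes (0% of 18152) at an adjusted p under 0.05. At an unadjusted p under 0.05 it had 1 member higher (7.62% of all genes) and 2 lower (4.54%). DESeq2 called 1 of 82 members higher, against 5.83% of all genes it tested, and 2 lower, against 3.94%, and limma voom called 0. Each of these shares of members is below that of all genes.

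Uqcrc1 (ENSMUSG00000025651, chromosome 9 of GRCm38 from 108936633 to 108949623), a core protein of complex III, was at 69.5 and 144 CPM in AML-high libraries and at 507 and 465 CPM in normal ones. The Nes-GFP low libraries held 429, 258, 523 and 726 CPM in AML mice and 183 to 589 CPM, with a median of 359, in normal mice. Both AML-high libraries thus lay below all other 12 libraries. Its log2 fold change in Nes-GFP high BMSCs was -2.19 (4.55-fold; SE, the standard error, 0.666, adjusted p = 0.279 from edgeR), and DESeq2 gave -2.24 with an adjusted p of 0.0105. Leaving out 1 high library at a time, edgeR's value ran from -2.85 to -1.78, and with normal-high replicate 1 left out, DESeq2 gave -2.22 with an adjusted p of 0.0647. The other 8 members of complex III had values from -0.76 for Uqcrfs1, the Rieske iron-sulfur protein (SE 0.911, adjusted p = 0.876), to 0.90 for Cyc1, cytochrome c1, at 236 and 201 CPM in AML-high and 86.6 and 147 CPM in normal-high libraries (SE 0.761, adjusted p = 0.737).

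Ndufs5 (ENSMUSG00000028648, chromosome 4 from 123712710 to 123718202), an accessory subunit of complex I, went the other way. It was at 188 and 227 CPM in AML-high libraries, and at 78.2 and 83.4 CPM in normal ones. In Nes-GFP low BMSCs it was at 62.8, 44.9, 64.6 and 113 CPM in AML mice and at 64.4 to 95.3 CPM, with a median of 83.1, in normal mice. The 2 AML-high libraries lay above the other 12. Its log2 fold change in Nes-GFP high BMSCs was 1.36 (2.57-fold; SE 0.554, adjusted p = 0.378 from edgeR), and DESeq2 gave 1.29 with an adjusted p of 0.0344, or of 0.171 with normal-high replicate 1 left out.

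Sdhb (ENSMUSG00000009863, chromosome 4 from 140961203 to 140979193) was at 105 and 130 CPM in AML-high and at 409 and 271 CPM in normal-high libraries. In Nes-GFP low BMSCs it was at 87.7, 121, 209 and 275 CPM in AML mice and at 114 to 215 CPM, with a median of 166, in normal mice, so that the AML-high libraries lay within the range of the low population, and of the normal-high ones replicate 1 lay above it and replicate 2 near its top. The log2 fold change was -1.53 (2.89-fold; SE 0.602, adjusted p = 0.361 from edgeR), and -1.60 with an adjusted p of 0.0430 from DESeq2, or 0.25 with normal-high replicate 1 left out. Its partners in complex II had other values: 0.82 for Sdhd, a membrane anchor (SE 0.686, adjusted p = 0.733), and -0.33 for Sdha, the flavoprotein (SE 0.886, adjusted p = 0.99), which was at 78.5 and 454 CPM in the 2 normal-high libraries.

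Among members that averaged at least 10 CPM, those of complexes IV and V with the largest values passed neither edgeR nor DESeq2 on all libraries. Cox5b, which binds zinc in complex IV, was at 101 CPM in both AML-high and at 238 and 227 CPM in normal-high libraries (log2 fold change -1.21, SE 0.616, adjusted p = 0.444). Ndufa4l2 (ENSMUSG00000040280, chromosome 10 from 127514967 to 127517154), a target of hypoxia-inducible factors, was at 329 and 101 CPM in AML-high and at 38.7 and 69.9 CPM in normal-high libraries, and at 5.67 to 81.0 CPM in the 10 low libraries. Its log2 fold change was 1.99 (SE 1.06, adjusted p = 0.461). Atp5g3, a gene of the c ring that turns in the membrane, was at 80.6 and 73.9 CPM in AML-high and 164 and 209 CPM in normal-high libraries (-1.27, SE 0.763, adjusted p = 0.519). Atp5s, in complex V by symbol only, was at 18.0 and 37.6 CPM in AML-high and 11.2 and 0.709 CPM in normal-high libraries (2.21, SE 1.57, adjusted p = 0.628), and DESeq2 called it higher with normal-high replicate 1 left out. Ndufa1, an accessory subunit of complex I on the X chromosome, had a value of -1.30 (SE 0.683, adjusted p = 0.452), set by 297 CPM in normal-high replicate 1.

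**Figure D4:**
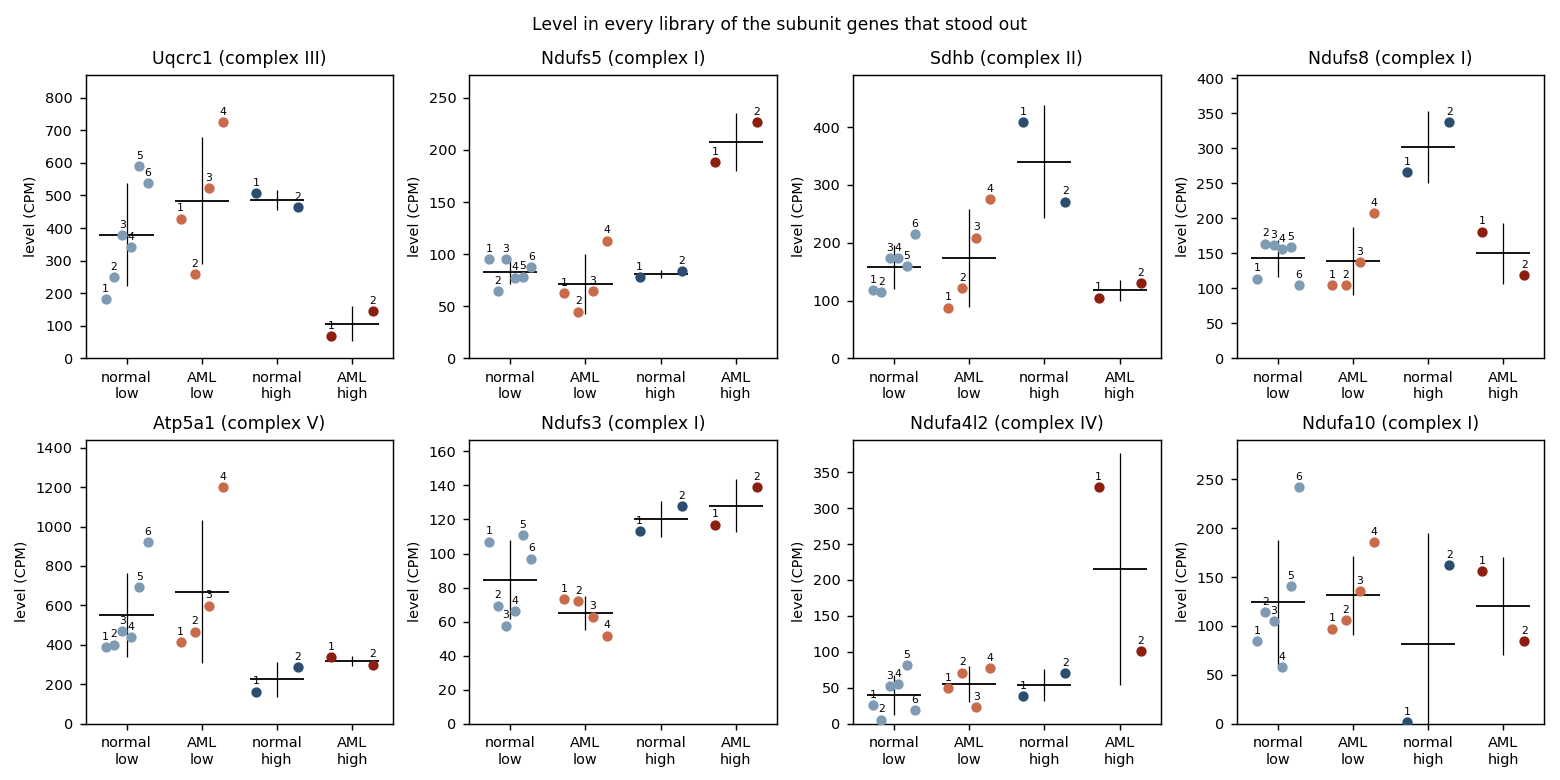
Level (CPM after TMM, linear axes from 0) of 8 members by group; points are libraries with their replicate number, lines the group mean and bars ± 1 SD, cut at 0. Uqcrc1 is lowest and Ndufs5 highest in the 2 AML-high libraries, Ndufs8 is highest in the 2 normal-high libraries, Ndufs3 is lower in the AML-low libraries (51.8 to 73.2 CPM) than in all 4 high libraries, and Ndufa10 is near 0 in 1 normal-high library.

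In Nes-GFP low BMSCs, where each group held more libraries, no member passed a test between AML and normal mice after adjustment. Of 83 members, 45 had a fitted value above and 38 below 0, with a median log2 fold change of 0.10 against 0.00 for all genes, and the median was -0.31 without AML-low replicate 4. edgeR called 0 members and 0% of genes; below an unadjusted p of 0.05 it had 2 members higher (2.64% of all genes) and 1 lower (2.9%). DESeq2 called 0 members higher (0.208% of all genes) and 0 lower (0.473%), with 2 members below an unadjusted p of 0.05, and limma voom called 0, with 3. The 2 higher members were the isoforms Cox7b2 and Cox7a1, which had no count in most libraries: Cox7b2 was at 0.103, 4.0, 0 and 13.2 CPM in AML and 0 to 0.101 CPM in normal libraries, and Cox7a1 at 1.86, 0, 1.2 and 0 CPM in AML and 0 to 0.107 CPM in normal libraries.

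Complex III had 8 of 9 members above 0 in the low population (50.2% of all genes), with a median of 0.24 and values up to 0.35 (Uqcrc1, SE 0.409, adjusted p = 1.0). AML-low replicate 4 held the highest value of all libraries for 7 of these 9 members. Without it, the value of Uqcrc1 was 0.12, and the median of complex III is not given. Complex IV had a median of 0.29, complex V of 0.15, complex II of 0.05 and complex I of -0.07. Among well measured members, Atp5l, subunit g of the membrane part of the ATP synthase, had the largest value above 0 (0.69, SE 0.429, adjusted p = 1.0), and Cox7a2l, which joins complexes III and IV into supercomplexes, was at 87.9 to 208 CPM in AML and 76.3 to 128 CPM in normal mice (0.55, SE 0.416, adjusted p = 1.0). Sdhc, a membrane anchor of complex II, was at 40.0, 54.4, 42.3 and 72.2 CPM in AML and 49.2 to 101 CPM in normal mice (-0.60, SE 0.422, adjusted p = 1.0). Atp5s, at 2.68, 8.40, 1.85 and 0.326 CPM in AML and 7.06 to 61.1 CPM in normal mice, had the lowest value (-2.67, SE 1.08, adjusted p = 0.793).

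Averaged over both populations, AML and normal mice gave a median log2 fold change of -0.01 for the members and 0.07 for all genes. edgeR called 0 members and 0% of genes, with 1 member higher (Cox7a1; 7.49% of all genes) and 1 lower (Uqcrc1; 5.15%) below an unadjusted p of 0.05. DESeq2 called 0 members higher (3.71% of all genes) and 0 lower (3.06%), with 5 members below an unadjusted p of 0.05. With AML low replicate 4 and normal low replicates 5 and 6 left out, the low libraries with the most erythroid transcripts, DESeq2 called 2 members lower, Atp5g3 and Ndufs8. The share of all genes called in that setting is not given, so this count cannot be set against it.

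The effect of AML was set against itself in the 2 populations. For the difference of these effects, edgeR called 0 members and 0% of genes, with 2 members higher (Ndufs5 and Atp5s; 6.41% of all genes) and 2 lower (Sdhb and Uqcrc1; 3.55%) below an unadjusted p of 0.05. DESeq2 called 0 higher (3.1% of all genes) and 1 lower (1.69%), Uqcrc1. For Uqcrc1 the difference was -2.54 on the log2 scale (SE 0.774, adjusted p = 0.408 from edgeR); DESeq2 gave -2.58 with an adjusted p of 0.0235, and of 0.0772 with normal-high replicate 1 left out. In that last setting, normal-high replicate 2 stands alone in its group. Atp5s, Ndufa5 and Ndufb6, which are low in it, then had differences above 0.

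**Figure D5:**
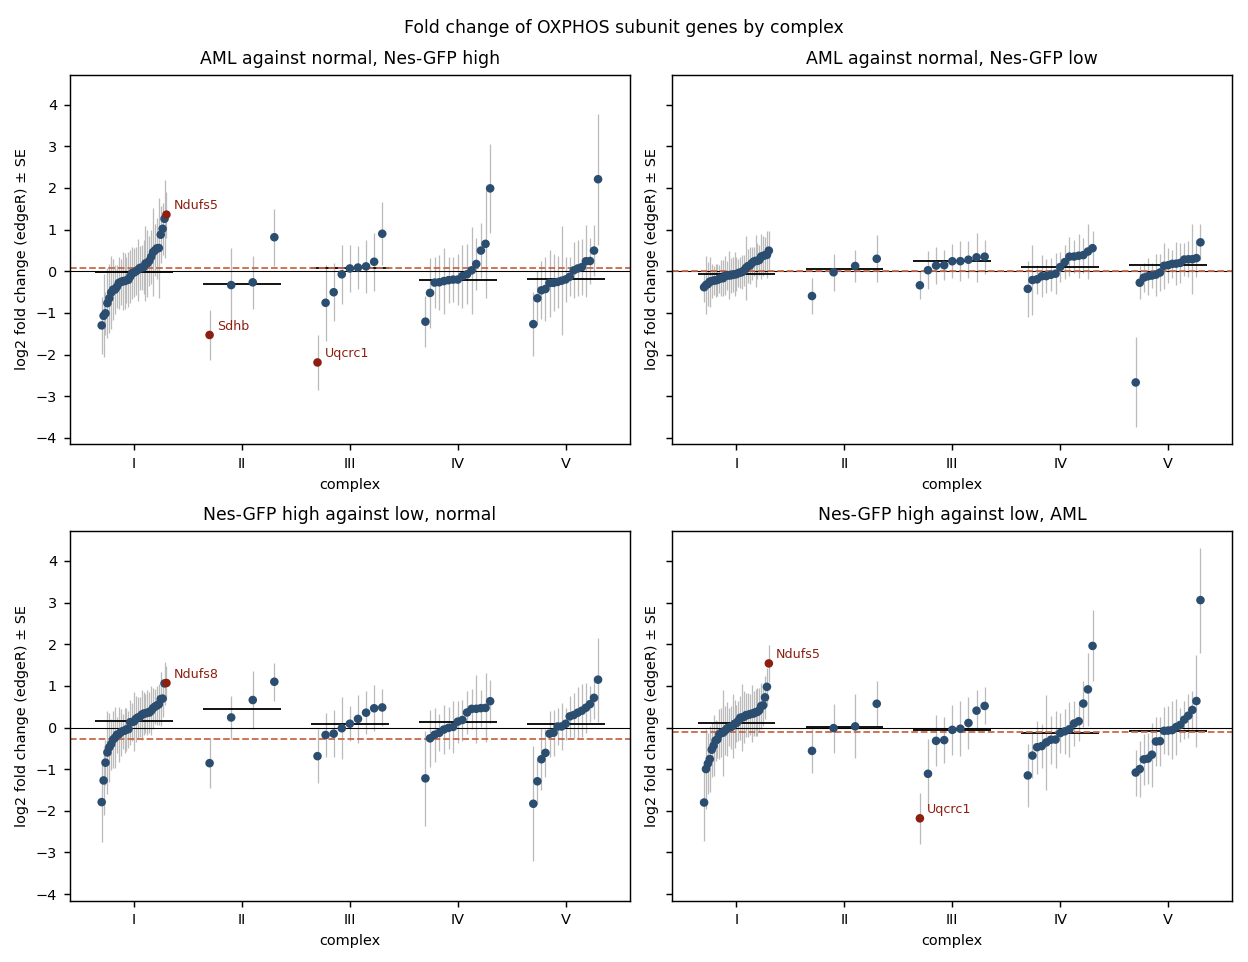
Fitted log2 fold change (edgeR) by complex in 4 comparisons, for members that averaged 10 CPM or more over all libraries. Points are genes with bars of ± 1 SE, and the black line is their median in the complex. The dashed line is the median of all genes tested, and named red points passed DESeq2's test but not edgeR's. Points scatter around the dashed line in the comparisons of AML with normal mice, and in normal mice the medians of the complexes lie above it between Nes-GFP high and low.

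Between Nes-GFP high and low BMSCs of normal mice, the median of the members was above that of all genes when all libraries were used. Their median log2 fold change was 0.14, or 0.18 with absent isoforms at the floor, against -0.27 for all genes, and 49 of 83 members (59.0%) had a value above 0 against 41.1% of all genes. The medians were 0.15 (I), 0.45 (II), 0.09 (III), 0.08 (IV) and 0.09 (V), and 0.27 for complex IV with absent isoforms at the floor. The groups were not tested as groups, and all genes were not matched to the members by level. Normal-high replicate 1 bears on this: 21.4% of the genes picked by their level in the low libraries were under 0.5 CPM there. Without it, the median of the members was -0.19 and without replicate 2 it was 0.30. The median of all genes in these settings is not given, so it is not known whether the members stayed above it. edgeR called 0 members and 0% of genes, with 2 members higher (2.1% of all genes) and 1 lower (9.14%) below an unadjusted p of 0.05. DESeq2 called 1 of 82 members higher (0.591% of all genes) and 0 lower (10.1%), and limma voom called 0.

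Ndufs8 (ENSMUSG00000059734, chromosome 19 from 3908863 to 3912774), an iron-sulfur core subunit of complex I, was the member that DESeq2 called. It was at 266 and 338 CPM in normal-high libraries, above all 6 normal-low libraries, which held 105 to 164 CPM with a median of 157. AML mice held 181 and 119 CPM in the high and 105, 105, 138 and 208 CPM in the low population. The log2 fold change in normal mice was 1.07 (2.11-fold; SE 0.399, adjusted p = 0.369 from edgeR), and DESeq2 gave 1.15 with an adjusted p of 0.0184. In edgeR, Ndufs8 had an adjusted p of 0.406 with the 3 low libraries richest in erythroid transcripts left out. DESeq2 called it also with normal-high replicate 1 left out (adjusted p = 0.0491) and with the 3 low libraries richest in erythroid transcripts left out (adjusted p = 0.0187).

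Sdhb, with 409 and 271 CPM against 114 to 215 CPM, had a log2 fold change of 1.1 (SE 0.455, adjusted p = 0.407), or 0.63 without normal-high replicate 1. Atp5a1, the alpha subunit of the F1 head, ran the other way, with 163 and 288 CPM in Nes-GFP high and 388 to 920 CPM, median 454, in Nes-GFP low BMSCs (-1.29, SE 0.539, adjusted p = 0.409). Neither group of Atp5a1 values overlapped the other. Ndufs1, a core subunit of complex I, had the lowest value of its complex (-1.79, SE 0.968, adjusted p = 0.492) with 13.0 and 56.7 CPM in Nes-GFP high and 17.9 to 267 CPM in Nes-GFP low BMSCs, which overlapped.

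Between Nes-GFP high and low BMSCs of AML mice, the members had a median log2 fold change of -0.02 against -0.11 for all genes, with 40 above and 43 below 0. Without AML-low replicate 4 the median was 0.36, and 0.36 also with normal low replicates 5 and 6 left out as well. The medians by complex were 0.11 (I), 0.01 (II), -0.06 (III), -0.21 (IV) and -0.07 (V). edgeR called 0 members and 0% of genes; below an unadjusted p of 0.05, 4 members were higher (Ndufs3, Ndufs5, Ndufa4l2 and Atp5s; 2.5% of all genes) and 2 lower (Uqcrc1 and Cox7b2; 6.48%). DESeq2 called 1 member higher, Ndufs5 (0.571% of all genes), and 1 lower, Uqcrc1 (6.27%), and limma voom called 0.

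The AML-high libraries of this comparison are those of the comparison with normal mice, so the same 2 libraries carry both results. Ndufs5 had a log2 fold change of 1.54 (2.91-fold; SE 0.454, adjusted p = 0.434 from edgeR), and DESeq2 gave 1.59 with an adjusted p of 0.00138. Uqcrc1 had one of -2.18 (4.53-fold; SE 0.617, adjusted p = 0.409), and DESeq2 gave -2.12 with an adjusted p of 0.0057. With the 3 low libraries richest in erythroid transcripts left out, DESeq2 called both again, with 1.85 (adjusted p = 3.73e-05) and -1.90 (adjusted p = 0.0124). edgeR called neither in that setting (adjusted p = 0.346 for Ndufs5 and 0.416 for Uqcrc1). The setting was chosen after seeing the data and keeps the same AML-high libraries, so it is not independent support. Ndufa4l2 had a value of 1.96 (SE 0.853, adjusted p = 0.546). Ndufb10 (-1.80, SE 0.934, adjusted p = 0.58) rested on the 4.58 CPM of AML-high replicate 1, and Cox5a, a subunit that faces the matrix in complex IV, on the 18.3 CPM of the same library against 24.7 to 153 CPM in AML-low libraries (-1.15, SE 0.761, adjusted p = 0.632).

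Averaged over normal and AML mice, Nes-GFP high and low BMSCs gave a median of 0.07 for the members and -0.31 for all genes, and 53.0% of members and 38.6% of all genes had a value above 0. edgeR called 0 members and 0% of genes, with 2 members higher (2.69% of all genes) and 3 lower (13.7%) below an unadjusted p of 0.05. DESeq2 called 2 members higher, Ndufs3 and Ndufs5 (0.846% of all genes), and 1 lower, Atp5a1 (10.7%). Ndufs3 (ENSMUSG00000005510, chromosome 2 from 90894634 to 90904827), a core subunit of complex I, was at 117 and 139 CPM in AML-high and 113 and 128 CPM in normal-high libraries. The low libraries held 73.2, 71.9, 62.9 and 51.8 CPM in AML mice and 57.6 to 111 CPM, median 83.2, in normal mice, so that all 4 high libraries lay above all 10 low libraries. Its log2 fold change was 0.74 (1.67-fold; SE 0.309, adjusted p = 0.267 from edgeR), with 0.79 and an adjusted p of 0.028 from DESeq2, and of 0.0513 with the 3 low libraries richest in erythroid transcripts left out.

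Atp5a1 was at 336 and 300 CPM in AML-high and 163 and 288 CPM in normal-high libraries, and at 388 CPM or more in all 10 low libraries, up to 1200 CPM. All 4 high libraries lay below all 10 low ones. The averaged log2 fold change was -1.18 (2.27-fold; SE 0.386, adjusted p = 0.206 from edgeR), and -1.11 with an adjusted p of 0.0207 from DESeq2. With the 3 low libraries richest in erythroid transcripts left out, edgeR gave Atp5a1 an adjusted p of 0.259. Its partner Atp5b, at 702, 491, 726 and 720 CPM in the high and 439 to 1970 CPM in the low libraries, overlapped between the populations. With the 3 low libraries richest in erythroid transcripts left out, the value for Atp5a1 was -0.75 in edgeR and DESeq2 called it again (adjusted p = 0.029), but not with normal-high replicate 1 left out (adjusted p = 0.136). Ndufs5 had a value of 0.75 (SE 0.314, adjusted p = 0.268 from edgeR); in normal mice its high libraries (78.2 and 83.4 CPM) lay within the range of the low ones (64.4 to 95.3 CPM).

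Where complex IV and the c ring have more than 1 isoform, shares were taken from counts per kilobase of exon union, and none of 18 comparisons of shares passed an exact two-sided permutation test after adjustment (smallest adjusted p 0.701; the designs allow an unadjusted p of 0.00952 between AML and normal low libraries and of 0.00476 between high and low). Ndufa4l2 made up 89.6% and 34.6% of Ndufa4 and Ndufa4l2 together in AML-high libraries, 16.4% and 48.6% in normal ones, and 4.08% to 53.8% in the low libraries. Its mean was 47.3% ± 31.1 (SD, n = 4) in the high and 24.1% ± 14.4 (SD, n = 10) in the low population (p = 0.114, exact permutation within AML and normal mice). Cox4i2, the oxygen-responsive isoform, made up 12.9% ± 4.49 of Cox4i1 and Cox4i2 in the high and 8.48% ± 4.28 in the low population (p = 0.124, same exact test), with 0.65% in AML-low replicate 3 and at most 17.4%, in normal-high replicate 2. Cox6b2, the testis isoform, was found in every library, at 4.80 to 89.7 CPM and 0.889% to 11.9% of Cox6b1 and Cox6b2, and was highest in normal-low replicates 6 and 5. These shares rest on the length chosen. Per kilobase of the principal transcript, Cox4i2 made up 7.38% and 8.20% in AML-high, 3.71% and 10.1% in normal-high and 0.346% to 7.97% in the low libraries. Ndufa4l2 then made up 81.7% and 21.5% in AML-high and 9.23% and 32.9% in normal-high libraries, and Cox6b2 1.46% to 18.3% over all libraries.

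The c ring of the ATP synthase is built of 1 protein made from 3 genes, Atp5g1, Atp5g2 and Atp5g3, which differ in the leader peptide only. Atp5g1 made up 14.3% ± 5.68 (SD, n = 4) of their summed level in the high and 19.1% ± 4.85 (SD, n = 10) in the low population (p = 0.0571, exact permutation, adjusted p = 0.701). Atp5g2 made up 41.9% ± 6.70 and 34.7% ± 6.90, and Atp5g3 43.7% ± 10.1 and 46.2% ± 8.40. The length mattered here too: in AML-high replicate 1, Atp5g1 held 16.3% by exon union, 33.7% without length and 7.27% by principal transcript.

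The muscle isoforms were at or near 0. Cox6a2 was at 5.26 and 4.90 CPM in AML-low replicates 1 and 2, at 3.53 CPM in normal-high replicate 1, at 2.14 and 3.55 CPM in normal-low replicates 1 and 3, and at 0 in the other 9 libraries. Cox7a1 reached at most 2.51 CPM, in AML-high replicate 2, and Cox8b at most 1.40 CPM. A count of 0 allows up to 3 counts per library.

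Other genes of the pathway were read from lists by function, and edgeR called 0 of their members in each comparison. The 13 OXPHOS proteins of mitochondrial DNA summed to 13800 and 15840 CPM in AML-high and 20220 and 17780 CPM in normal-high libraries. In Nes-GFP low BMSCs they summed to 9017 to 20190 CPM in AML and 12850 to 20920 CPM in normal mice. In AML against normal mice, 9 of 13 were lower in Nes-GFP high (median -0.40) and 11 of 13 in Nes-GFP low BMSCs (median -0.36), with 0 below an unadjusted p of 0.05 in either. These genes are transcribed together from a small genome and are not independent of each other. mt-Nd1, a subunit of complex I, averaged over populations, had a log2 fold change of -0.87 (SE 0.342, adjusted p = 0.332). AML-low replicate 4, with the highest sum of nuclear members, also had the highest mitochondrial sum of the AML-low libraries (20190 CPM, against 9017 to 15770 CPM), and normal-low replicate 1 (20920 CPM) and normal-high replicate 1 (20220 CPM) stood slightly above it.

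Single assembly factors had wide fitted differences between the high groups. Of 31 tested factors of complexes II to V, 4 were higher and 5 lower below an unadjusted p of 0.05 between AML-high and normal-high libraries, and of 13 factors of complex I, 3 were higher and 0 lower, against 7.62% (higher) and 4.54% (lower) of all genes. Atpaf2, a chaperone of the F1 head, was at 60.2 and 64.0 CPM in AML-high and 1.26 and 2.55 CPM in normal-high libraries, and at 20.8 to 106 CPM in the low libraries (log2 fold change 5.02, SE 0.937, adjusted p = 0.143). Ndufaf4, an assembly factor of complex I, was at 31.8 and 46.7 against 2.02 and 1.70 CPM (4.39, SE 1.15, adjusted p = 0.224). Uqcc1, which assembles complex III, was at 0.991 and 0.209 CPM in AML-high and 117 and 38.2 CPM in normal-high libraries (-7.00, SE 1.71, adjusted p = 0.193). Each of these factors stood near 0 in both libraries of 1 high group. Single low libraries were also low: Uqcc1 was at 0.809 CPM in normal-low replicate 6 and at 12.4 to 60.8 CPM in the other low libraries. Ndufaf4 was at 3.33 CPM in AML-low replicate 3 and at 10.3 to 75.9 CPM in the other low libraries.

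Genes of coenzyme Q and cytochrome c (15 tested) had 1 member higher (7.62% of all genes) and 0 lower (4.54%) below an unadjusted p of 0.05 in AML-high against normal-high libraries, a share near that of all genes. Between Nes-GFP high and low BMSCs averaged over mice, 3 of the 15 were lower below an unadjusted p of 0.05 (13.7% of all genes), with Pdss1, which makes the side chain of coenzyme Q, at -4.11 (SE 1.16, adjusted p = 0.163). Regulators of OXPHOS genes (11 tested) had 1 member higher below an unadjusted p of 0.05 in AML-high against normal-high libraries (7.62% of all genes), Tfam, which packs and transcribes mitochondrial DNA, at 57.0 and 29.9 against 0 and 2.27 CPM (adjusted p = 0.321). Between Nes-GFP high and low BMSCs of AML mice, 1 of the 11 regulators was higher below an unadjusted p of 0.05 (2.5% of all genes), Hif1a, at 452 and 329 CPM in the high and 123 to 263 CPM in the low libraries (1.21, SE 0.519, adjusted p = 0.546).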

How the data were processed

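RNA of sorted Nes-GFP+ BMSCs was amplified with Smart-seq2 and sequenced in 14 libraries. The authors trimmed reads with Trim Galore 0.4.1, aligned them to mm10 with TopHat2 2.1.0 and counted them per gene with featureCounts, as the submitters' processing notes name them; the deposited values are whole-number counts per gene symbol, without normalization. Totals ran from 5615941 to 11436652 counts. The table holds 2 further library columns that match no sample used here. Groups came from the labels. Reads carry no molecular identifiers, so the floor of 3 counts covers counting error only. The members and gene lists were chosen with earlier results of these data known. All 27099 symbols entered edgeR 4.0.16 (R 4.3.3; quasi-likelihood test, TMM, filterByExpr with a minimum count of 10, 4 groups, two-sided), with Benjamini-Hochberg adjustment over 18152 genes at 0.05. Comparisons share libraries: each group enters several. DESeq2 1.42.0 and limma 3.58.1 (voom with quality weights) were alternatives, as were DESeq2 size factors, filters, a replicate block and each library left out. The labels do not say whether high and low libraries come from the same mice, and libraries were treated as independent. Leaving out 3 erythroid-rich low libraries, leaving out normal high replicate 1 in DESeq2, and principal transcript lengths were added after seeing the data. Genes named were, in each complex, those with the smallest p and the largest fitted values. Those past DESeq2, the isoform pairs and a list of catalytic subunits were named too. Ndufa10, Ndufa5, Ndufb6 and Ndufc2 were among the genes named after their values were seen. Isoform shares were compared with exact permutation tests. Lengths and positions came from GENCODE M21 (GRCm38) and promoters from RefSeq. Scripts were tested on simulated counts. Python 3.11.15, numpy 2.4.6, pandas 2.3.3, scipy 1.17.1 and matplotlib 3.10.9 made tables and plots. 1 member gene is counted but not reported here by name.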

Additional observations from a re-analysis of the deposited data

Results flagged for a closer look

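Single libraries lay far from the others of their group, by Dixon's gap test at the 95% level over 76 groups of 4 or 6 libraries, of which chance marks about 1 in 20 (5%); 6 were marked. Atp5g3 (368 CPM) and Cyc1 (461 CPM) were marked in AML Nes-GFP low replicate 4, the library with the highest sums. Atp5s was marked in normal Nes-GFP low replicate 1 (61.1 CPM), and Sdha in normal Nes-GFP low replicate 5 (402 CPM). The c ring of AML Nes-GFP low replicate 3 had the highest share of Atp5g2 in its group (47.9%) and the lowest of Atp5g3 (33.2%).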

How the results depend on the processing

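edgeR called 0 members in each comparison, and so did limma voom (with 2 to 5 members below an unadjusted p of 0.05) and edgeR with a replicate block, with other size factors or other filters. DESeq2 called 3 members in AML against normal Nes-GFP high BMSCs, 1 in Nes-GFP high against low of normal mice, 2 of AML mice, 3 averaged over mice, and 1 for the difference of the AML effects. With normal Nes-GFP high replicate 1 left out, DESeq2 called 3, 4, 2 and 3 (AML against normal high, high against low of normal mice, averaged, difference), of which Ndufs8, Ndufs3 and Ndufs5 were also called with all libraries in the same comparison. With 3 erythroid-rich low libraries left out, it called 2 for AML against normal averaged over populations, 1 and 2 for high against low of normal and AML mice, 3 averaged over mice and 2 for the difference. The shares of all genes called with libraries left out are not given, so these counts cannot be set against them. Leaving out each library in turn, edgeR's counts ran from 0 to 1 in the 5 comparisons that use normal Nes-GFP high libraries, the 1 being Ndufa10 without replicate 2, whose lone partner held it at 1.77 CPM. The median of the members ran from -0.31 (without AML low replicate 4) to 0.23 for AML against normal Nes-GFP low, and from -0.24 to 0.36 (without AML low replicate 4) for high against low in AML mice, where it was 0.36 in edgeR and DESeq2 with the 3 libraries left out. With the replicate block the median in normal mice, high against low, was 0.55 (0.14 without it), and the block changed no call. The labels do not say whether replicate numbers pair samples. Of 14 pairs of libraries with the same number, 4 correlated above 0.1 (from -0.16 to 0.37), which cannot settle it.

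Of 750 values of named members, 742 kept their direction and 21 passed only in DESeq2. Those that turned were Ndufb5 (-0.00889 in AML against normal low without AML low replicate 4, and up to 0.767 without 1 other library), Uqcrh (-0.248 in normal high against low without normal high replicate 1, 0.972 without replicate 2), Cyc1 (0.23) and Cox6b2 (0.83) in the same comparison and Sdhb (0.00917) in AML high against low, all under the replicate block, Sdhc (-0.315 in AML high against low without AML high replicate 1, 1.13 without replicate 2), and Cox6b2 with the 3 libraries left out (0.139 in edgeR, 0.141 in DESeq2). The causes were not tested. AML Nes-GFP low replicate 4 held the highest sum of every complex under raw totals, lengths and DESeq2 size factors, except that with the latter normal Nes-GFP high replicate 2 was highest in complex II. With 2 libraries in each high group, differences there rest on 2 values a side.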
